A study of Homo sapiens with 4 samples.

Results

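The integrin and laminin genes were taken as all genes whose symbol names an integrin alpha chain, an integrin beta chain or a laminin alpha, beta or gamma chain, and which had at least 1 Affymetrix probe set paired with that gene alone. Of 18132 genes measured in this way, 35 were members, 18 integrin alpha genes, 7 integrin beta genes and 10 laminin genes, with 101 probe sets between them. ITGB6 was left out because both of its probe sets were paired with a second gene, and further laminin chains were not analysed here. The rule uses symbols and probe set annotation, not measured values.

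The study asked which genes lie downstream of ARID1A, the DNA-binding subunit of the SWI/SNF chromatin remodelling complex, and compared OE33 cells after ARID1A knockdown with mock cells. OE33 is an established cell line from a human adenocarcinoma of the oesophagus. Knockdown cells received a SMARTpool of siRNAs against ARID1A and mock cells a Non-targeting Pool, both at 50 nM with a lipid reagent, and all were harvested 48 hours after transfection. Each group had 2 arrays, described as biological replicates. The model is 1 cell line and 1 pool of siRNAs, so effects of the pool on other transcripts and those of ARID1A loss cannot be told apart.

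Integrins are receptors made of 1 alpha and 1 beta chain that bind proteins of the extracellular matrix or of other cells and connect them to the cytoskeleton. Laminins are secreted trimers of an alpha, a beta and a gamma chain and form the sheet of the basement membrane under epithelia. In glandular and squamous epithelia, ITGA3 paired with ITGB1 and ITGA6 paired with ITGB1 or ITGB4 are receptors for laminin, ITGA2 with ITGB1 binds collagen, and ITGAV pairs with several beta chains that bind fibronectin, vitronectin or the latent form of TGF-beta. ITGB2 is the beta chain of leukocyte integrins and ITGA2B is the alpha chain of the platelet integrin.

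The targeted gene was checked first. ARID1A had log2 levels of 7.53 and 7.53 in the knockdown arrays, against 9.28 and 9.33 in the mock arrays, and fell to 29.2% of the mock level (limma log2 change -1.78, SE 0.0718, adjusted p = 0.0218). All 7 epithelial markers examined (keratins, claudins, EPCAM and CDH1) were above background, as defined below. All 7 had a positive log2 change, 5 of them without overlap and 0 past the test, and their linear sums were 73636 and 74265 in the knockdown arrays, against 71813 and 72026 in the mock arrays. Of the markers of other cell types, 0 of 7 for fibroblasts, 0 of 5 for leukocytes, 2 of 4 for endothelium (PECAM1 and VWF) and 1 of 4 for platelets (GP9) were above it. All 4 endothelial markers lay lower in both knockdown arrays than in both mock arrays, with linear sums of 167 and 167 in the knockdown arrays, against 180 and 184 in the mock arrays. Of the fibroblast markers 6 of 7 had a negative change, 3 without overlap. Their sums of 171 and 152 in the knockdown arrays, against 167 and 185 in the mock arrays, overlapped. Over all genes, both knockdown arrays lay above both mock arrays for 25.8% and below both for 23.6%. The fibroblast markers and the endothelial CDH5 and TEK were not above background, where a probe set may report background alone. PECAM1 and VWF, at 6.00 and 6.14 in mock cells, lay under the stricter level of 6.70 described below, so their expression is uncertain. The part of the marker differences in the values of the members was not tested. For beta-actin, the log2 signal of the 3′ control less that of the 5′ control was 1.21 and 1.10 in the knockdown arrays, against 1.04 and 0.995 in the mock arrays. This difference grows as RNA is less intact, and it was larger in both knockdown arrays than in both mock arrays. Its part in the results below was not tested. For GAPDH the same measure was 0.201 and 0.215 in the knockdown arrays, against 0.199 and 0.211 in the mock arrays, which overlap.

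Expression in OE33 was judged against 333 olfactory receptor genes, which an epithelial line is not known to use. The 95th percentile of their levels in mock cells, 5.70 on the log2 scale, was taken as background. By this rule 21 of the 35 integrin and laminin genes were above background in mock cells, 13 of 25 integrins and 8 of 10 laminins, against 11091 of all 18132 genes. They comprised the alpha chains ITGA2, ITGA2B, ITGA3, ITGA6, ITGA10, ITGAE, ITGAV and ITGAX, 5 beta chains (ITGB1, ITGB3, ITGB4, ITGB5 and ITGB8), and the laminin chains LAMA4, LAMA5, LAMB1, LAMB2, LAMB3, LAMB4, LAMC1 and LAMC3. Of these, ITGA10, ITGA2B, ITGB3, LAMA4, LAMB2 and LAMC3 lay under the 99th percentile of the olfactory receptor genes (6.70), so their expression is uncertain. That of LAMB4 and ITGAX is uncertain too, since each was above background at its main probe set alone. In mock cells LAMB4 was at 7.01 there and at 5.54, 4.13 and 2.93 at its other probe sets. ITGAX was at 7.62, and at 4.87, 4.24 and 3.75 at its others. The brightness of different probe sets depends on their probes, so no order of abundance between genes is given.

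No integrin or laminin gene passed the test between knockdown and mock cells. In limma over 49293 probe sets, 0 of 35 genes had an adjusted p under 0.05, and 0 of their 101 probe sets did, the smallest adjusted p being 0.0517. The genes that did pass, over the whole array, had log2 changes of at least 0.63 in size, and ITGB2 was the 1 member beyond that at its main probe set. Over all genes 0.188% passed higher and 0.215% lower, 0.403% in all. By limma's unadjusted p under 0.05, 6 members (17.1%) were higher and 3 (8.57%) lower in knockdown cells, beside 9.76% and 7.25% of all genes, or 17% in either direction. Both knockdown arrays lay above both mock arrays for 12 members (34.3%) and below both for 6 (17.1%), where 25.8% and 23.6% of all genes did so. Among the 21 members above background (defined by mock cells), 5 were higher and 3 lower by the unadjusted p, beside 13.4% and 8.5% of all genes above background. For 8 of the 21 both knockdown arrays lay above both mock arrays and for 5 below, beside 33.4% and 26% of genes above background. Because mock cells set the filter, it kept ITGB3, which was above background in mock cells alone and is among the 3 lower. It left out ITGB2 and ITGA5, which were above background in knockdown cells alone. The shares of members are from small counts, and no test of the list was made. The median log2 change was 0.03 over the 25 integrins and 0.01 over the 10 laminins, and -0.00 over all genes. In bulk RNA, fewer cells with a transcript and less of it per cell cannot be told apart.

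The count of members past the test differed between settings. When limma let the spread depend on the level of a probe set, 8 of the 35 genes (22.9%) passed, 6 higher (ITGB2, LAMB2, ITGB8, LAMC1, LAMB3 and ITGA6) and 2 lower (ITGA3 and ITGA2). In that setting 5.28% of all genes passed higher and 3.35% lower, 8.63% in all. With probe sets under the median level left out, LAMB2, ITGB8, LAMC1 and LAMB3 passed higher, beside 5.73% of the 10614 genes kept (3.48% passed lower, 9.2% in all), and 17 members were kept. With each array centred on its median, ITGB2 and LAMB2 passed higher, beside 0.982% of all genes (0.596% passed lower, 1.58% in all). The adjusted p-values below are those of limma without these changes, in which none of these members passed.

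**Figure D1:**
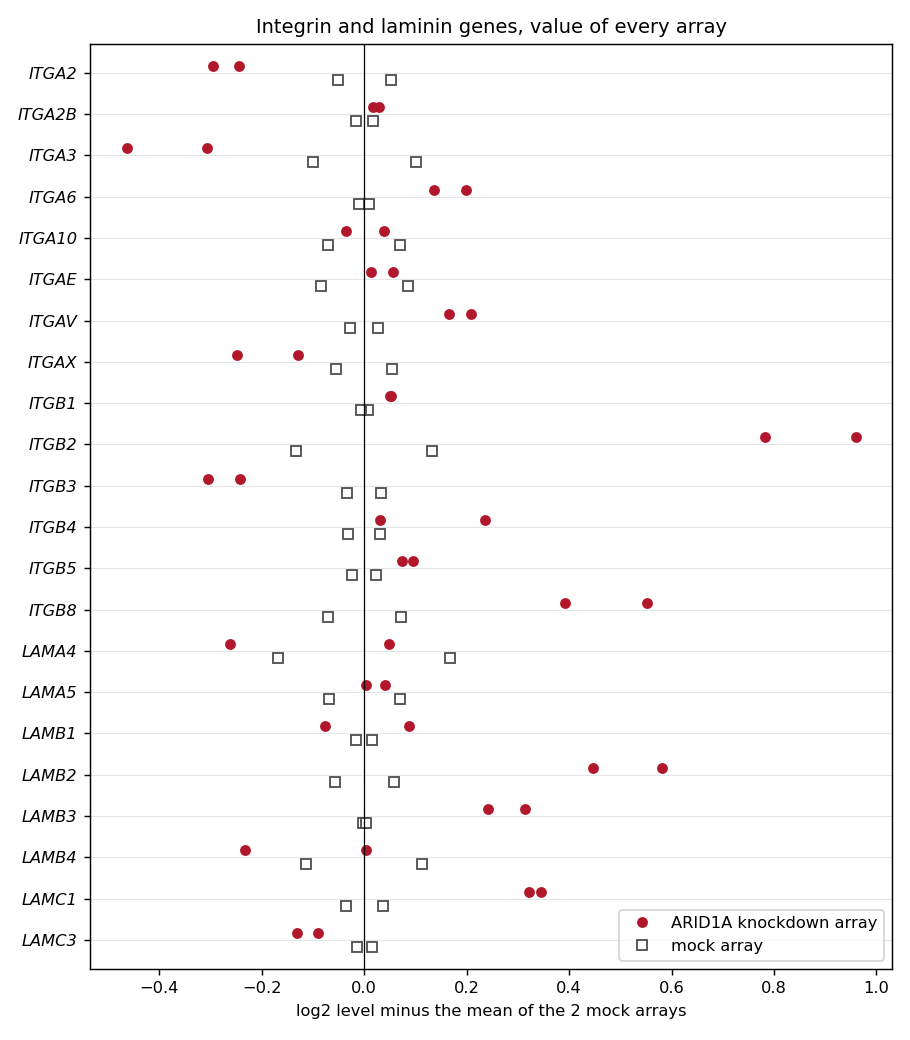
Log2 level of the main probe set in each of the 4 arrays, as the difference from the mean of the 2 mock arrays, for the 21 genes above background in mock cells and ITGB2, with filled circles for knockdown arrays and open squares for mock arrays. ITGB2, LAMB2, ITGB8, LAMC1 and LAMB3 lie to the right in both knockdown arrays, and ITGA3, ITGA2 and ITGB3 to the left.

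ITGB2 had the smallest p of the 35 genes at their main probe sets. It encodes the beta chain shared by the leukocyte integrins, whose alpha chains are ITGAL, ITGAM, ITGAX and ITGAD. Its single probe set, 11717337_a_at, had log2 levels of 6.03 and 6.20 in the knockdown arrays, against 5.38 and 5.11 in the mock arrays. Both knockdown arrays were above the background level and both mock arrays were below it, with no overlap. The fitted log2 change was 0.87 (SE 0.118, 95% interval 0.58 to 1.17), with an adjusted p of 0.0636 in limma. Since the mock level was not above background, the fold has only a bound. Set against the chosen background level of 5.70, ITGB2 was at least 1.33-fold higher in knockdown cells. Both knockdown arrays lay under the 99th percentile of the olfactory receptor genes (6.70), so expression there is uncertain too. Against that level no fold of ITGB2 can be given. Its alpha partners ITGAL, ITGAM and ITGAD stayed between 4.47 and 5.24 in all arrays, under the background, while ITGAX, described below, lay above it in all 4 at its main probe set. The leukocyte markers PTPRC, CD3E, CD14, LCP2 and FCER1G lay between 3.03 and 5.35 in all arrays, below background, and their log2 changes ran from -0.20 to 0.19. Their levels summed on the linear scale were 109 and 113 in the knockdown arrays, against 116 and 121 in the mock arrays. At these levels the markers and their sum may report background alone, and the part of leukocyte RNA in the value of ITGB2 was not tested.

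ITGB8 pairs with ITGAV alone and binds latent TGF-beta. At its main probe set, 11722503_at, it had log2 levels of 9.72 and 9.88 in the knockdown arrays, against 9.40 and 9.26 in the mock arrays. The groups did not overlap, and the log2 change was 0.47 (SE 0.0949, 95% interval 0.24 to 0.71, 1.39-fold, adjusted p = 0.116 in limma). Its 3 other probe sets had changes of 0.64, 0.25 and 0.10, all of the same sign, those of 0.25 and 0.10 at levels under background. The first of these, 11749103_a_at, at mean levels of 6.67 in knockdown and 6.04 in mock cells, had the smallest adjusted p of all member probe sets (0.0517).

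ITGAV had log2 levels of 10.37 and 10.41 in the knockdown arrays, against 10.18 and 10.23 in the mock arrays. The groups did not overlap, but the log2 change was 0.19 (SE 0.0730, adjusted p = 0.297). All 4 other probe sets of ITGAV were also positive, with changes between 0.12 and 0.46. The largest was at 11716299_a_at, under background at mean levels of 5.42 in knockdown and 4.95 in mock cells. Of the other beta chains that can pair with it, ITGB5 had a change of 0.08 (adjusted p = 0.619), and ITGB3, the beta chain also used by platelets, had levels of 5.57 and 5.51 in the knockdown arrays, against 5.78 and 5.85 in the mock arrays. For ITGB3 the change was -0.27 (SE 0.0752, adjusted p = 0.187), and knockdown cells lay under the background level, so its size has only a bound. Its 6 other probe sets were dim, with changes between -0.06 and 0.06, so the difference rests on 1 probe set. The platelet markers PF4, GP9, GP1BA and PPBP, summed on the linear scale, stood at 224 and 204 in the knockdown arrays, against 200 and 213 in the mock arrays, which overlap.

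ITGA3, a laminin-binding alpha chain, had log2 levels of 9.10 and 9.25 in the knockdown arrays, against 9.46 and 9.66 in the mock arrays. Both knockdown arrays were below both mock arrays, with a log2 change of -0.39 (SE 0.104, 95% interval -0.64 to -0.13, adjusted p = 0.180). Its 2 other probe sets, under the background level, had changes of -0.08 and 0.00. ITGA2, a collagen-binding alpha chain, had levels of 11.16 and 11.11 in the knockdown arrays, against 11.36 and 11.46 in the mock arrays. Its change was -0.27 (SE 0.0781, adjusted p = 0.202), without overlap, and its second probe set had a change of -0.19.

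ITGA6, another laminin-binding alpha chain, had a positive difference. Its log2 levels were 12.56 and 12.62 in the knockdown arrays, against 12.43 and 12.41 in the mock arrays. The change was 0.17 (SE 0.0727, adjusted p = 0.340 in limma), and the 2 other probe sets of ITGA6 had changes of 0.05 and 0.19. The main probe set ends in _s_at, so its probes can match other sequences. Without _s_at and _x_at probe sets the change of ITGA6 was 0.05. ITGB4, its partner in hemidesmosomes, had levels of 7.86 and 8.06 in the knockdown arrays, against 7.79 and 7.86 in the mock arrays, so the groups overlapped. The change of ITGB4 was 0.13 (adjusted p = 0.545), and its 7 other probe sets divided into 3 positive and 4 negative, between -0.21 and 0.17.

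ITGB1, the common partner of most alpha chains, had levels of 13.64 and 13.63 in the knockdown arrays, against 13.59 and 13.58 in the mock arrays. Its change at the main probe set was 0.05 (SE 0.0702, adjusted p = 0.777). All 4 other probe sets of ITGB1 were positive as well, between 0.13 and 0.37, none past the test. The groups did not overlap at any of the 5, and the sizes differed between probe sets. The dimmest, 11742048_at, was under background, at mean levels of 3.22 in knockdown and 3.03 in mock cells. The 5 were read on the same arrays and are not independent. Over all genes, both knockdown arrays lay above both mock arrays for 25.8%.

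Among the laminins, the members nearest to the threshold were beta and gamma chains. LAMB2, a beta chain found in many basement membranes, had log2 levels of 6.43 and 6.56 in the knockdown arrays, against 5.92 and 6.04 in the mock arrays. The groups did not overlap, and the log2 change was 0.51 (SE 0.0878, 95% interval 0.30 to 0.73, 1.43-fold, adjusted p = 0.0917). It has a single probe set, not far above background.

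LAMC1, the gamma chain of most laminins, had levels of 10.55 and 10.57 in the knockdown arrays, against 10.19 and 10.26 in the mock arrays. Its log2 change was 0.33 (SE 0.0736, 95% interval 0.15 to 0.52, 1.26-fold, adjusted p = 0.133). Of its 4 other probe sets, 3 had changes of 0.36, 0.34 and 0.28, while the dimmest, 11762516_at, had one of -0.10. The 4 brighter probe sets of LAMC1 thus had similar changes.

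LAMB3, a chain of the laminin that anchors hemidesmosomes, had levels of 9.45 and 9.52 in the knockdown arrays, against 9.20 and 9.21 in the mock arrays. The change was 0.28 (SE 0.0733, adjusted p = 0.176), without overlap, and its second, dimmer probe set had a change of 0.05. LAMA5 and LAMB1, the chains that join LAMC1 in the common epithelial laminin, had changes of 0.02 (adjusted p = 0.932 in limma) and 0.01 (0.988). Whether these differ from the changes of LAMC1 and LAMB3 was not tested. For LAMB1 the 95% interval ran from -0.21 to 0.22, and the groups overlapped.

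To show the sequence around the starts of the genes described, RefSeq promoter windows (GRCh38.p14, 250 bases before the start to 50 after it) are given for the 3 genes above background with the smallest p among positive changes and for ITGA2 among negative ones. ITGB2, ITGA3 and ITGB3 are named only. Capitals mark the GC box, GGGCGG on either strand, the motif bound by SP-family factors. Each is written 5′ to 3′ on the strand of the gene.
LAMB2 promoter, chr3:49133001-49133300, minus strand: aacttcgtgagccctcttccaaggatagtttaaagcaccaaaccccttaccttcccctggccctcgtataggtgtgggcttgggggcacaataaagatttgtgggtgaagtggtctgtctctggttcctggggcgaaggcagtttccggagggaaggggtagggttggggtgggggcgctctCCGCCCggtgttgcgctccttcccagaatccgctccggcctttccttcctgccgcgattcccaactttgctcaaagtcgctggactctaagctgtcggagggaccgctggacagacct
ITGB8 promoter, chr7:20330650-20330949, plus strand: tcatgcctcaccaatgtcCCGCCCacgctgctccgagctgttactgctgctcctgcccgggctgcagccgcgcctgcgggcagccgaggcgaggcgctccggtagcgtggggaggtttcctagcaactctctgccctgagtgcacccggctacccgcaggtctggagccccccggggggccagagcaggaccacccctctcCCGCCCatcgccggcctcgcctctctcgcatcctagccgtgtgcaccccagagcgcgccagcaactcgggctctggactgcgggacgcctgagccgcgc
LAMC1 promoter, chr1:183023170-183023469, plus strand: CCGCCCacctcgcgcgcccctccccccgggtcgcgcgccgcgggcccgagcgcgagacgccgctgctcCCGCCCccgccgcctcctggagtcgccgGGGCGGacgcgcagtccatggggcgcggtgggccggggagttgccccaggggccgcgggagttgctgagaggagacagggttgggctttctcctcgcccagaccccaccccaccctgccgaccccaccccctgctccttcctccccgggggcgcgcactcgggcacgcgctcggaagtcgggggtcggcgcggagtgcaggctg
ITGA2 promoter, chr5:52989102-52989401, plus strand: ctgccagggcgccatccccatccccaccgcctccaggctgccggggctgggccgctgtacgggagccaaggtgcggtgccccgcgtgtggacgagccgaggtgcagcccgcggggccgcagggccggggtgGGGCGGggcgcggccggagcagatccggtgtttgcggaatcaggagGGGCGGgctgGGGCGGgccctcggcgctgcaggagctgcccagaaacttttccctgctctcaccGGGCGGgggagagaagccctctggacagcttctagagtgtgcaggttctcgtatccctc

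The windows of LAMB2, ITGB8 and LAMC1 held 1, 2 and 3 GC boxes, and that of ITGA2, whose change was negative, held 4. A GC box was present in 45% of all 35116 promoter windows. Counted per gene, over any of its listed starts, 13 of the 24 members with a window held one, beside 48.3% of all 27305 genes with a window. None of the 4 windows printed held the AP-1 motif TGANTCA, present in 7.71% of all windows and, among members, in those of ITGA5 and LAMB3, or the TATA motif TATAAA on either strand, present in 11.5% of all windows. The motifs were picked after the values were seen, and a match is a description of the letters alone.

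**Figure D2:**
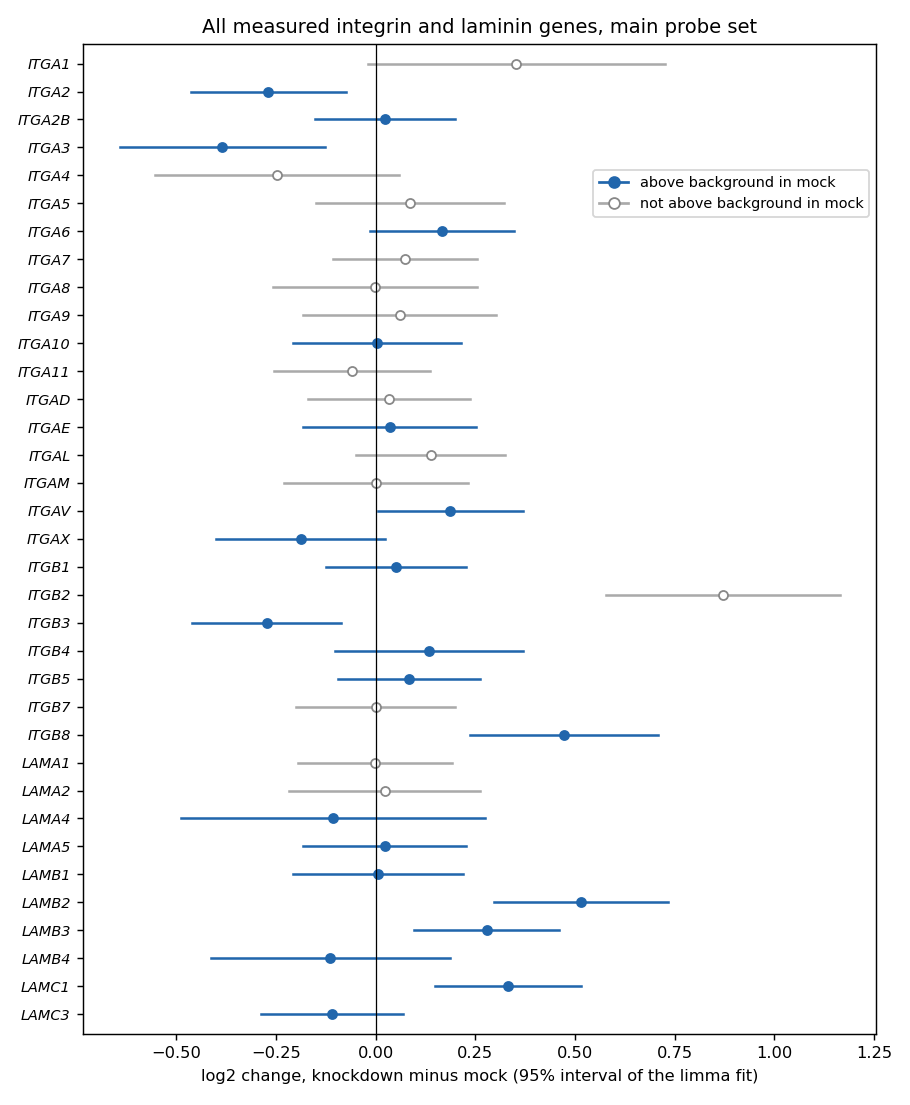
Log2 change between knockdown and mock cells for all 35 integrin and laminin genes at their main probe set, with 95% intervals from limma, blue where the gene was above background in mock cells and grey where it was not. The interval of ITGB2 (0.58 to 1.17), whose mock level was not above background, lies to the right of 0, and those of most other genes span 0.

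ITGAX, an alpha chain of leukocyte integrins, had levels of 7.49 and 7.37 in the knockdown arrays, against 7.56 and 7.67 in the mock arrays (change -0.19, SE 0.0850, adjusted p = 0.356), without overlap. That probe set ends in _x_at, so its probes can match other sequences, and the 3 other probe sets of ITGAX were under background with changes of -0.18, 0.13 and 0.36. LAMC3 had levels of 5.77 and 5.81 in the knockdown arrays, against 5.92 and 5.89 in the mock arrays (change -0.11, adjusted p = 0.508), also without overlap. The other 9 members above background had log2 changes between -0.11 and 0.08, and the smallest adjusted p among them was 0.619. ITGAE, a partner of ITGB7 that binds E-cadherin, had levels of 10.29 and 10.25 in the knockdown arrays, against 10.32 and 10.15 in the mock arrays, which overlap.

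Besides ITGB2, 13 members were not above background in mock cells. They were ITGA1, ITGA4, ITGA5, ITGA7, ITGA8, ITGA9, ITGA11, ITGAD, ITGAL, ITGAM, ITGB7, LAMA1 and LAMA2, which include chains of fibroblasts, muscle and leukocytes and the fibronectin receptor chain ITGA5. Their mean log2 levels were 3.48 to 5.71 in knockdown cells and 3.48 to 5.62 in mock cells. Of these 13, 7 had a positive and 6 a negative change, from -0.25 (ITGA4) to 0.35 (ITGA1), and the smallest adjusted p was 0.329. At such levels a probe set may report background alone.

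**Figure D3:**
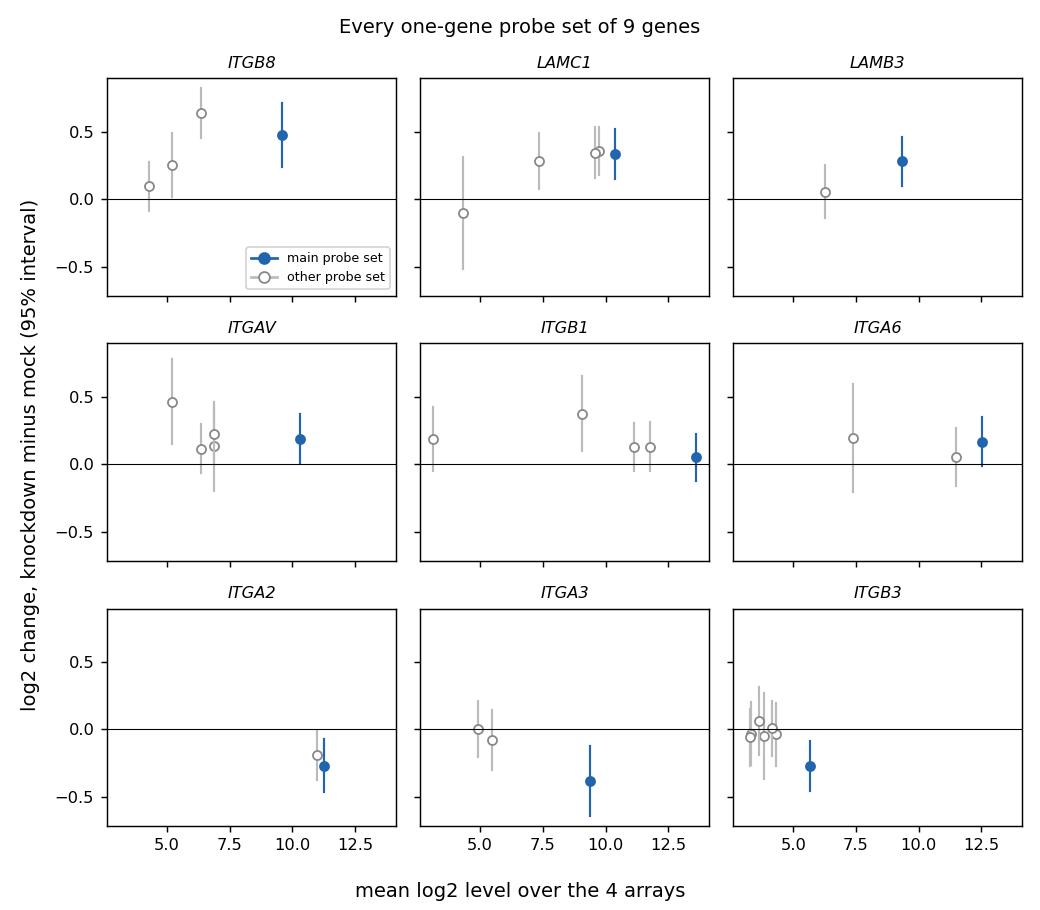
Log2 change of every one-gene probe set of 9 integrin and laminin genes (vertical axis, with 95% intervals) against its mean log2 level over the 4 arrays (horizontal axis), filled for the main probe sets. The brighter probe sets of LAMC1 lie together near 0.3, all 4 of ITGB8 and all 5 of ITGAV and ITGB1 are above 0, and for ITGB3 the brightest probe set alone stands below the rest. Probe sets at mean levels under 5.70, among them the dimmest of ITGB8, ITGAV and ITGB1, may report background alone.

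Partners of the integrins and laminins were examined as lists, whose counts are to be read beside the percentages over all genes given above. Of 37 measured genes of the integrin adhesome, the proteins that gather at the inner face of integrins, 1 passed the test, and it was lower. PHLDB2, which anchors microtubules beside focal adhesions, had levels of 9.06 and 9.08 in the knockdown arrays, against 10.02 and 10.01 in the mock arrays, and fell 1.92-fold (log2 change -0.94, SE 0.0704, adjusted p = 0.0261). With any 1 of the 4 arrays left out, 0 of all genes passed, PHLDB2 and ARID1A included. By the unadjusted p, 3 of the 37 were higher and 6 lower, and the median change was -0.04.

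Further members of that list were also lower in knockdown cells without passing. FERMT2, a kindlin that activates integrins, had levels of 6.46 and 6.46 in the knockdown arrays, against 7.25 and 7.05 in the mock arrays (change -0.70, adjusted p = 0.0616), while its 3 other probe sets, at lower levels, had changes of -0.14, -0.05 and 0.01. KANK1 and KANK2, which link talin to the cortical complex that holds PHLDB2, had changes of -0.43 (adjusted p = 0.0884) and -0.44 (0.0889). Neither gene's groups overlapped at its main probe set. KANK1 was at 8.68 and 8.68 in the knockdown arrays, against 9.14 and 9.08 in the mock arrays. At dimmer probe sets the changes were -0.21 for KANK1, and 0.00 and -0.37 for KANK2. The brightest probe sets of PHLDB2, FERMT2, KANK1 and KANK2 all end in _s_at and may match other sequences. The same holds for the main probe sets of the members ITGA6, ITGAV, ITGB1 and LAMC1.

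For hemidesmosomes, tetraspanins and other laminin receptors, 0 of 10 measured genes passed, while limma's unadjusted p was under 0.05 for 1 higher and 3 lower. PLEC, the plakin that ties ITGB4 to keratins, had levels of 10.06 and 9.95 in the knockdown arrays, against 10.67 and 10.85 in the mock arrays. Its log2 change was -0.76 (SE 0.0955, 1.69-fold lower, adjusted p = 0.0571), read from its single probe set, an _s_at one. DST, another plakin of hemidesmosomes, had a change of -0.21 at its main probe set and between -0.52 and 0.34 at its others. The tetraspanin CD151, which binds ITGA3 and ITGA6, had a change of -0.20, while the tetraspanin CD9 had one of 0.22. All 5 probe sets of CD151 were negative, between -0.32 and -0.20, none past the test. The median of the list was -0.08.

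Among 18 other basement membrane genes 0 passed, while limma's unadjusted p was under 0.05 for 3 higher and 0 lower, with a median of -0.03. COL18A1, a collagen of basement membranes, had levels of 8.38 and 8.38 in the knockdown arrays, against 7.89 and 8.01 in the mock arrays (change 0.43, adjusted p = 0.101). NTN4, a netrin that binds the laminin gamma chain, had levels of 10.61 and 10.70 in the knockdown arrays, against 10.26 and 10.26 in the mock arrays (change 0.39, adjusted p = 0.110). FREM2 and FRAS1, partners in one complex under the epithelium, had changes of 0.29 and 0.22. The second probe sets of COL18A1 and NTN4 had changes of 0.42 and 0.58.

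Of 22 other ligands of integrins 0 passed, while limma's unadjusted p was under 0.05 for 2 higher and 1 lower, with a median of -0.03. Nephronectin, NPNT, had a change of 0.24, fibronectin, FN1, one of 0.22, and the fibrinogen chain FGB, under background, one of -0.29. All 8 probe sets of FN1 were positive, the others between 0.09 and 0.34. Those with changes of 0.19 and 0.09 were under background, at 4.59 and 4.60 in mock cells. Of 9 genes through which ITGAV receptors act on TGF-beta, 0 passed and 0 had an unadjusted p under 0.05 in limma. LTBP4, a latent TGF-beta binding protein, had a change of -0.22 (adjusted p = 0.331), while its 5 other probe sets divided into 2 positive and 3 negative, between -0.15 and 0.13. The receptor TGFBR1 had a change of 0.15 (adjusted p = 0.396).

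**Figure D4:**
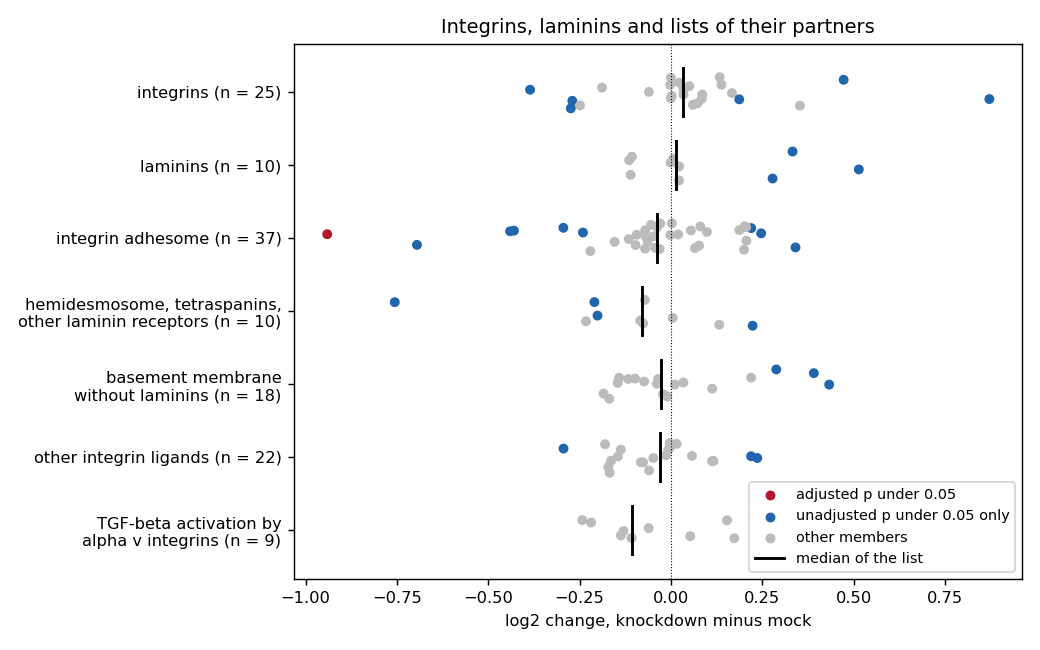
Log2 change between knockdown and mock cells for the 25 integrins, the 10 laminins and 5 lists of their partners. Each point is 1 gene at its main probe set, black bars are list medians, and the red point is PHLDB2 (-0.94), the 1 gene shown that passed the test.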

How the data were processed

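Total RNA was measured on 4 Affymetrix PrimeView arrays, 2 of ARID1A knockdown and 2 of mock OE33 cells, grouped by their labels. Values were deposited as log2 signals, 1 per probe set and array, and RMA and Partek are named per the submitters' processing notes, with no version or role. RMA as usually run brings probe signals to a common distribution, so a change in total mRNA would not be seen. The median level per array was 5.92 and 5.90 in knockdown and 5.89 and 5.93 in mock cells. The log2 scale was taken from that naming and from the range of the values. No scan batch is stated.

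After 79 control probe sets were left out of 49372, 49293 were tested, of which 44988 were paired with 1 gene in the platform annotation. Each gene is represented by its brightest one-gene probe set on average over the 4 arrays. Knockdown was compared with mock by limma 3.58.1 (R 4.3.3, lmFit and eBayes, two-sided, threshold 0.05, Benjamini-Hochberg over all 49293), without pairing. Errors are SEs of that fit with 2 residual degrees of freedom, so the number of arrays limits precision. The procedure was tested on simulated data. Named genes were the members with an unadjusted p under 0.05, the 12 above background with the smallest p, and up to 4 of each list by p. ITGB1, ITGB5, ITGAE, LAMA5 and LAMB1 fall outside this rule and were chosen after their values were seen, as partners of members named. Members and lists were chosen with earlier results of these data known. Alternatives are given at the end.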

Additional observations from a re-analysis of the deposited data

How the results depend on the processing

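The count of integrin and laminin genes past the test was 0 in limma, and 0 higher and 0 lower under quantile normalization, without _s_at and _x_at probe sets and without any 1 array. It was 2 higher with arrays centred on their medians, 4 higher with dim probe sets left out, and 6 higher and 2 lower with an intensity trend. In these settings 286, 977 and 1565 of all genes passed, against 73, and 138 under quantile normalization and 12 without _s_at and _x_at probe sets. Centring gave 178 higher and 108 lower, against 34 and 39. The cause was not tested. With the replicate block 0 members passed, as did 0 of all genes, ARID1A included (-1.78, adjusted p = 0.217), and limma's unadjusted p was under 0.05 for 5 members higher and 3 lower. Same-numbered arrays are not stated to share a culture, and their differences correlated at -0.20. With the crossed pairing, added after this was seen, 0 passed (ARID1A -1.78, adjusted p = 0.187). A random block was not run, because limma cannot estimate its correlation from 4 arrays. Without 1 array, ARID1A stayed at -1.80 to -1.75 with 1 residual degree of freedom and did not pass.

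At an unadjusted p under 0.05 the members lower numbered 0 to 3 without 1 array (0 without mock replicate 2, 1 without knockdown replicate 2) and those higher 4 to 6. Of 35 members, 15 to 23 were above background under the other thresholds. Medians without 1 array ran from 0.0434 to 0.0579 (integrins), -0.0286 to 0.0547 (laminins), -0.0551 to 0.00849 (adhesome), -0.124 to -0.0494 (hemidesmosome list), -0.107 to -0.0251 (basement membrane) and -0.0909 to 0.0460 (ligands). The integrin median was 0.0294 under quantile normalization, 0.0507 without dim probe sets (laminins 0.150) and 0.0209 as a mean over all probe sets. The adhesome median was -0.0635 under quantile normalization. Without _s_at and _x_at probe sets the adhesome, hemidesmosome and TGF-beta medians were 0.00242, 0.00480 and -0.0421, and the last was -0.00105 as a mean over all probe sets. Signs turned without 1 array for ITGA10 (-0.0682 to 0.0726), ITGAE (-0.0504 to 0.119), LAMA4 (-0.274 to 0.0611), LAMA5 (-0.0474 to 0.0915), LAMB1 (-0.0759 to 0.0876) and LAMB4 (-0.233 to 0.00405), for LAMB1 under quantile normalization (-0.00825) and for ITGAX without shared probe sets (0.132). As a mean over all probe sets they turned for LAMA5 (-0.237), ITGA2B (-0.00569) and ITGAX (0.0326). ITGB2, LAMB2, ITGB8, LAMC1, LAMB3, ITGA3 and ITGA2 kept their sign in all settings that gave them a value; ITGB2 had none with dim probe sets left out.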

Other observations

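Probe sets of the same gene did not always give the same change, as for LAMA5 and ITGAX. At its dim second probe set, 11762597_x_at, LAMA5 had mean log2 levels of 4.28 in knockdown and 4.78 in mock cells, a change of -0.50 (adjusted p = 0.190 in limma), against 0.02 at its main one. ITGAX had a change of 0.36 at 11750033_a_at and of -0.19 at its main probe set. PHLDB2 had changes of -1.09, -0.79, -0.72 and -0.77 at 4 of its 5 other probe sets, the first past the test (adjusted p = 0.0218 in limma), and of 0.28 at its dimmest. The probe sets with changes of -0.77 and 0.28 were under background in both groups.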
